A study of Ovis aries with 6 samples.

Results

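The C/EBP, EBF and early adipogenic regulators were taken as 10 named genes: CEBPA, CEBPB, CEBPD, CEBPG, DDIT3, EBF1, EBF3, ZNF423, TCF21 and GATA2. They were matched by gene name in the full table of 24390 genes. A total of 9 were found there, all 9 were high enough to be tested, and EBF1 was not matched by name and was not analysed here. RNA had been sequenced from the perirenal adipose tissue, which surrounds the kidney, of 3 lambs and 3 fetuses. All were wild-type, pure-bred Merino sheep, and the labels state that none was treated. The lamb age is labelled as 80 days after birth, as 89 days old and as 12 weeks, and the fetuses were taken 132 days post conception in a pregnancy of 150 days. VEH stands in the lamb titles without an explanation. The comparison asks how this depot changes as it turns from brown to white fat. Each library came from 1 animal, so n = 3 per stage throughout.

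Fat cells form from stromal precursors through a relay of transcription factors. In mouse cell lines C/EBPβ and C/EBPδ act first and switch on C/EBPα and PPARγ, which then sustain each other and the genes of the mature fat cell. C/EBPγ and CHOP, the product of DDIT3, are family members that pair with the others and mostly restrain them. EBF proteins and ZNF423 act in the commitment of precursors, TCF21 is a bHLH factor of visceral stromal cells in the mouse, and GATA2 holds precursors back from differentiating.

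CEBPD and TCF21 rose in lambs, by 4.89-fold and 5.17-fold in the fitted comparison, and CEBPB rose by 1.47-fold. The calls of CEBPB and TCF21 did not survive every change of method or of libraries, as given with their values. CEBPA fell, by 1.31 on the log2 scale. CEBPG, DDIT3, EBF3, ZNF423 and GATA2 did not pass the test. Differences are log2 values, lamb minus fetus, ± SE, and adjusted p-values are from edgeR's quasi-likelihood test with Benjamini-Hochberg adjustment over all 13624 genes tested, called below 0.05. Levels are CPM, read counts relative to library size after TMM scaling, which corrects that size for a few very abundant genes. The count of 3 higher, 1 lower and 5 not past the test among 9 genes stands beside a background of 44.7% of all genes called, 22% higher and 22.7% lower, so the number of calls did not set the group apart. The median log2 difference was 0.48 over the 9 genes and -0.01 over all genes tested. The lamb and fetal values did not overlap for 3 of the 9 genes, against 57.7% of all genes. In 2 of these every lamb lay above, as in 28.2% of all genes, and in 1 every lamb lay below, as in 29.5%. In bulk tissue, fewer cells of a type and less RNA per cell cannot be told apart.

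**Figure D1:**
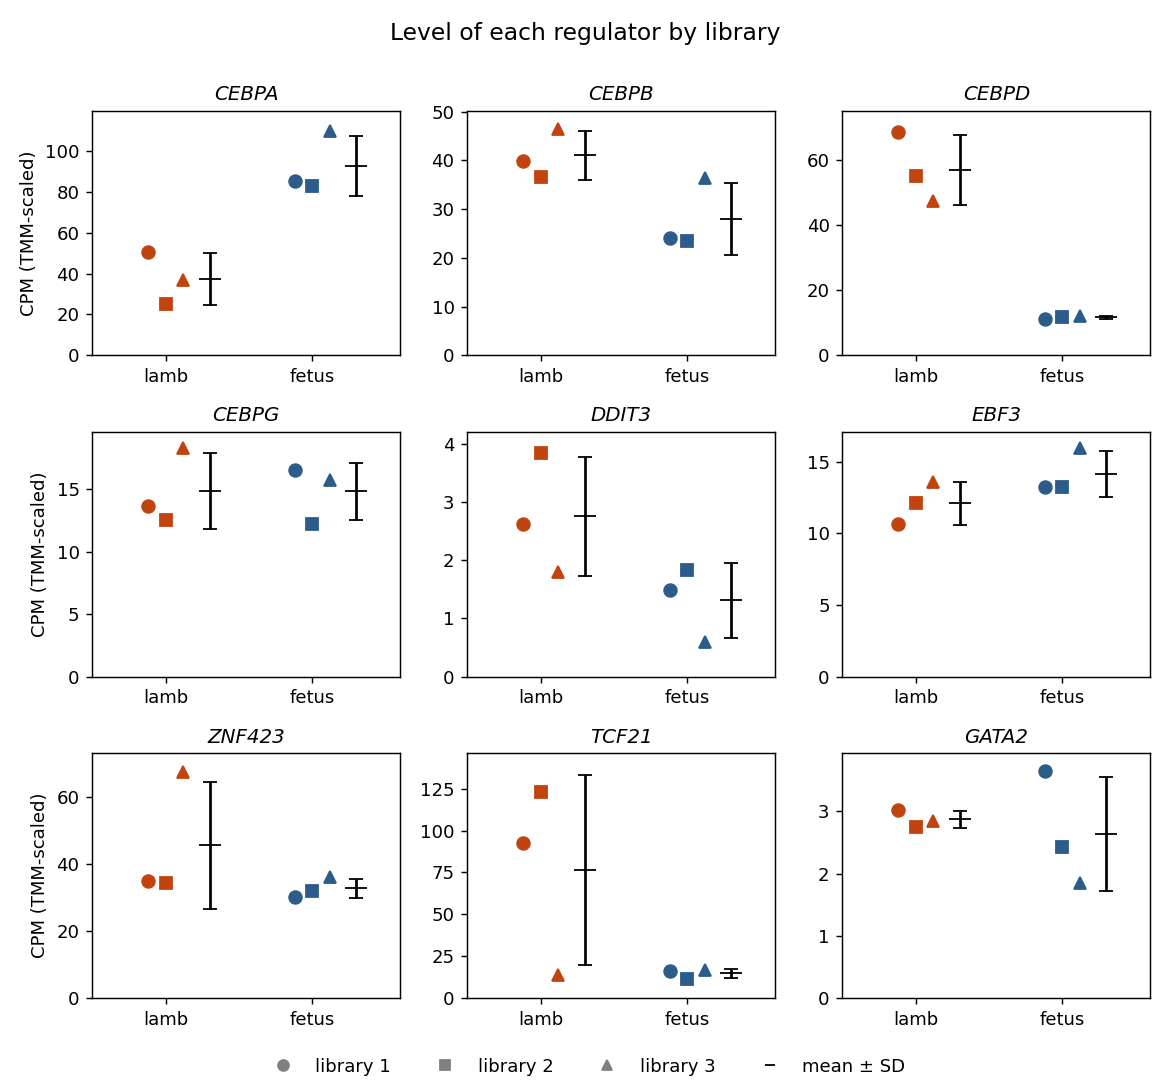
Level of each regulator in every library, in TMM-scaled CPM from 0, with lambs on the left, fetuses on the right, symbols for the library number and bars for the mean ± SD (n = 3). CEBPA lay lower and CEBPD higher in all 3 lambs than in any fetus, while TCF21 was at 92.8 and 123 CPM in lamb libraries 1 and 2 and at 13.5 CPM in lamb library 3.

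Libraries held 15907128 to 17263780 counts in lambs and 17535892 to 19150428 in fetuses, and the first principal component, which separated the stages, held 74.7% of the variance. Genes of the mitochondrial genome took 7.37 to 8.29% of the counts in lambs and 27.5 to 40.7% in fetuses. Scaling by library totals in place of TMM put the median of all log2 differences at 0.46. Under it 79.3% of called genes were higher in lambs, against 49.25% with TMM. The fat cell identity of the tissue was clear in both stages, since all 6 adipocyte markers were detected, with 5 higher and 0 lower in lambs. Their summed level was 28514 to 39529 CPM in lambs and 13326 to 16801 CPM in fetuses.

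CEBPA encodes the C/EBP factor of the mature fat cell (ENSOARG00000004414, chromosome 14, 43017755 to 43019889 on Oar v3.1). It was at 50.4, 24.9 and 36.9 CPM in lambs, against 85.5, 83.0 and 109.8 CPM in fetuses. Every lamb lay below every fetus, and the lambs differed among themselves by up to 2.03-fold. The means were 37.4 ± 12.8 CPM in lambs and 92.8 ± 14.8 CPM in fetuses (SD, n = 3 each), a log2 difference of -1.31 ± 0.25 (edgeR adjusted p = 0.00467). The 95% interval of the difference ran from -1.90 to -0.72. CEBPA kept its call and direction in all 16 alternative settings, with a smallest difference of -0.86 under scaling by library totals.

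CEBPD encodes an early C/EBP factor that glucocorticoids and inflammatory signals are known to induce (ENSOARG00000011169, chromosome 9, 31967164 to 31967945). It was at 68.8, 55.1 and 47.5 CPM in lambs, against 11.2, 11.8 and 12.1 CPM in fetuses. The fetal libraries lay within 1.08-fold of each other, the tightest group of any of the 9 genes at that stage, and the lowest lamb was far above them. The means were 57.1 ± 10.8 CPM in lambs and 11.7 ± 0.45 CPM in fetuses (SD, n = 3 each), a log2 difference of 2.29 ± 0.16 (edgeR adjusted p = 8.05e-05). The difference was between 2.14 and 2.76 in the 16 alternative settings and passed in each.

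CEBPB encodes the other early factor, which cAMP and glucocorticoid signals induce or activate (ENSOARG00000013395, chromosome 13, 77752054 to 77755971). It was at 40.0, 36.7 and 46.5 CPM in lambs, against 24.2, 23.4 and 36.4 CPM in fetuses. The stages did not overlap, but the highest fetus, library 3, came close to the lowest lamb. The means were 41.1 ± 5.01 CPM in lambs and 28.0 ± 7.30 CPM in fetuses (SD, n = 3 each), a log2 difference of 0.55 ± 0.19 (edgeR adjusted p = 0.0492). This call stood at the threshold. It was lost in 8 of 16 alternative settings, among them leaving out any library other than fetal library 3, and the adjusted p ranged from 0.00788 to 0.153. In the authors' deposited table of all genes the FDR-corrected p of CEBPB was 0.0680, and in the authors' deposited table of 17010 prefiltered genes it was 0.0438.

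CEBPG encodes a short C/EBP protein without an activation domain (ENSOARG00000011183, chromosome 14, 43096977 to 43097426). The table's gene model for it spans 450 bp. It was at 13.7, 12.6 and 18.3 CPM in lambs, against 16.6, 12.2 and 15.8 CPM in fetuses. The values of the stages were interleaved, and the log2 difference was 0.00041 ± 0.19 (edgeR adjusted p = 0.999), with a 95% interval from -0.44 to 0.44. The interval leaves room for changes of up to 1.36-fold upward. CEBPG lies 77087 bp from CEBPA, with 0 listed genes between them, and its level was not seen to move while that of CEBPA fell.

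DDIT3 encodes CHOP, the stress-induced C/EBP relative whose dimers do not bind the usual C/EBP sites (ENSOARG00000006500, chromosome 3, 161850954 to 161853613). It had only 53, 74 and 36 counts in lambs and 25, 25 and 10 counts in fetuses. That was 2.62, 3.84 and 1.80 CPM in lambs, against 1.49, 1.84 and 0.597 CPM in fetuses. Lamb library 3 lay just below fetal library 2, so the stages overlapped by that 1 value. The log2 difference was 1.08 ± 0.47 (edgeR adjusted p = 0.0953), with a 95% interval from -0.0041 to 2.16, and it passed with scaling by library totals (adjusted p = 0.0130). The gene model of MARS, a tRNA synthetase gene, spans that of DDIT3, and reads of the overlap cannot be assigned where strand was not used. MARS was at 82.3 ± 23.9 CPM in lambs and 63.2 ± 5.66 CPM in fetuses (SD, n = 3 each; edgeR adjusted p = 0.165).

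**Figure D2:**
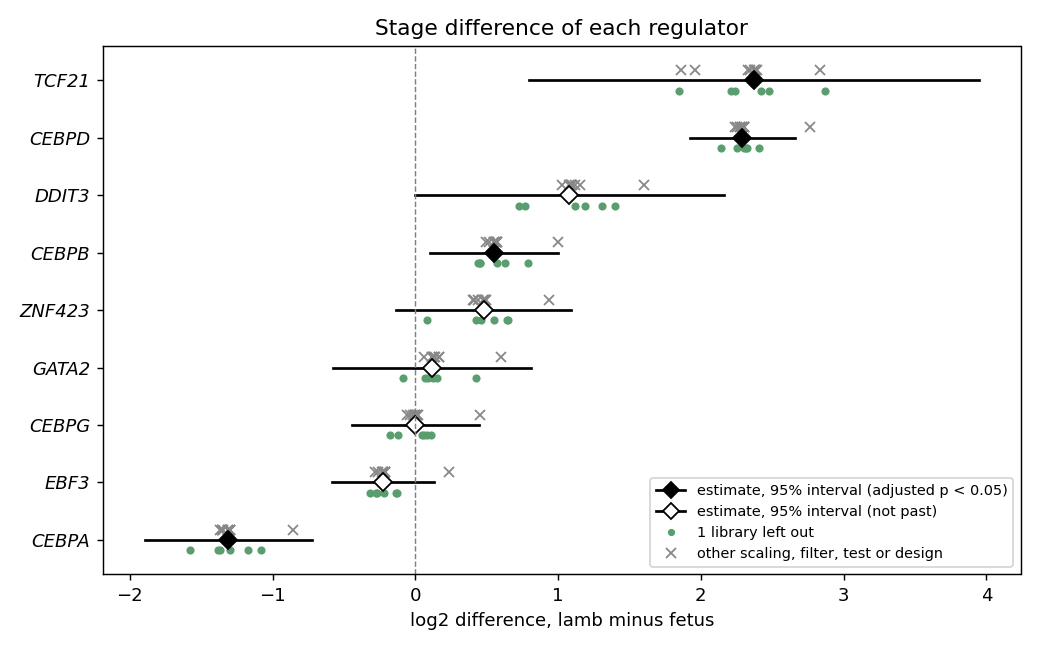
Log2 difference between the stages, lamb minus fetus, for each regulator, with the 95% interval as a line (filled diamond, adjusted p below 0.05). Dots leave out 1 library and crosses change scaling, filter, test or design. CEBPA stayed between -1.58 and -0.86 and CEBPD between 2.14 and 2.76, while TCF21 had the widest interval, from 0.79 to 3.95.

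Because the C/EBP proteins pair with each other, the balance among their transcripts was described in values per gene length. The authors' mean RPKM, which divide reads by gene length and by library size, are not TMM-scaled and have no spread. In lambs they were 105 for CEBPB, 99.2 for CEBPD, 79.3 for CEBPA, 28.4 for CEBPG and 5.27 for DDIT3. In fetuses they were 146 for CEBPA, 52.9 for CEBPB, 21.0 for CEBPG, 15.1 for CEBPD and 1.63 for DDIT3. By these means CEBPA was the leading C/EBP transcript in fetuses and ranked behind CEBPB and CEBPD in lambs. The lamb means lay close together, and CEBPA differed by up to 2.03-fold among lambs, so their order need not hold in each lamb. Its share of the summed RPKM of the 5 genes was 25.0% in lambs and 61.7% in fetuses. The share of CEBPD was 31.2% in lambs and 6.38% in fetuses, that of CEBPB 33.2% in lambs and 22.4% in fetuses, and that of CEBPG 8.93% in lambs and 8.87% in fetuses.

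The same balance was followed library by library as the log2 ratio of the counts of 2 genes, which no library scaling can move. The CEBPA/CEBPD ratio was -0.45, -1.14 and -0.36 in lambs, against 2.93, 2.81 and 3.18 in fetuses, a 12.4-fold lower ratio in lambs. The CEBPA/CEBPB ratio was 0.34, -0.56 and -0.33 in lambs, against 1.82, 1.83 and 1.59 in fetuses, 3.82-fold lower in lambs. Every lamb lay outside the fetal range in both ratios. CEBPB/CEBPD was -0.78, -0.59 and -0.03 in lambs, against 1.11, 0.99 and 1.59 in fetuses, 3.24-fold lower in lambs. DDIT3/CEBPA was -4.26, -2.69 and -4.34 in lambs, against -5.81, -5.47 and -7.45 in fetuses, 5.59-fold higher in lambs. Fetal library 3 held only 10 DDIT3 counts, and without it the log2 difference of this ratio was 1.88, against 2.48 with all libraries. Each of the 4 ratios had no overlap between stages and a two-sided exact permutation p = 0.1, also 0.1 after Benjamini-Hochberg adjustment over the 4, which is the smallest p that 3 against 3 allows. The 4 ratios share genes and are not independent.

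**Figure D3:**
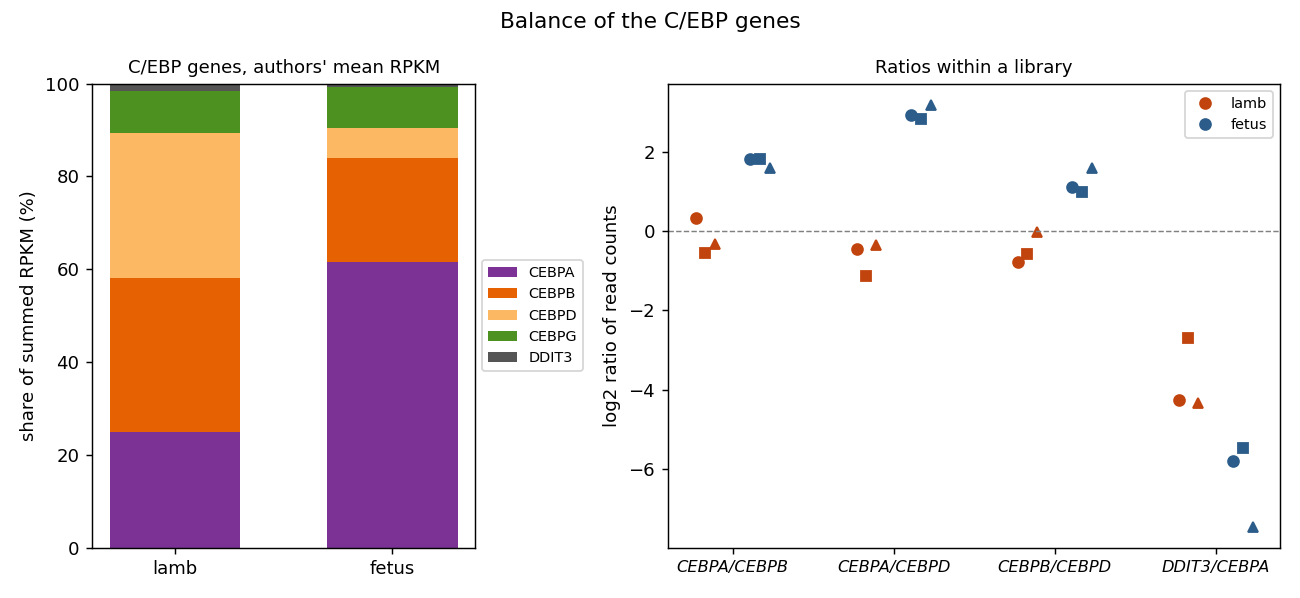
Left, share of each C/EBP gene in the summed authors' mean RPKM of the 5 genes (%), lamb and fetus. Right, log2 ratio of the counts of 2 genes in each library, lambs left of fetuses, with circle, square and triangle for libraries 1, 2 and 3. CEBPA held 25.0% in lambs and 61.7% in fetuses, and none of the 4 ratios overlapped between the stages.

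TCF21 encodes a bHLH factor of visceral mesenchyme (ENSOARG00000014623, chromosome 8, 59082052 to 59084545). It was at 92.8, 123 and 13.5 CPM in lambs, against 15.8, 11.6 and 16.8 CPM in fetuses. The lambs did not form 1 group: libraries 1 and 2 stood above every fetus, and library 3 lay inside the fetal range, 9.12-fold below library 2. The log2 difference was 2.37 ± 0.68 (edgeR adjusted p = 0.0239). Without lamb library 3 it was 2.87 (adjusted p = 2.61e-04). Without lamb library 1 it was 2.21 (adjusted p = 0.0660) and without lamb library 2 it was 1.85 (adjusted p = 0.0728). The call was also lost on leaving out any 1 fetal library (adjusted p between 0.0574 and 0.0833) and with limma-voom (adjusted p = 0.103), against a range of 2.61e-04 to 0.103 over all 16 alternatives. The value of lamb library 3 rested on 270 counts.

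Markers of cells that can express TCF21 were set beside it. Of 11 fibroblast and preadipocyte markers, 4 were higher and 1 lower, and their sum was 7968, 8738 and 8671 CPM in lambs, against 12913, 6594 and 9913 CPM in fetuses. COL3A1 made up 3869, 4005 and 4490 CPM of the lamb sums. PI16 and DPP4, markers of early precursors, were named here after their values were seen, and neither passed the test. In lambs 1, 2 and 3 PI16 was at 156, 140 and 87.4 CPM and DPP4 at 4.20, 1.82 and 0.650 CPM. Both were lowest in lamb library 3, as were DCN, CD34 and COL1A1, while LUM, MFAP5, FBN1, THY1 and COL3A1 were highest in it. The part of these cells in the TCF21 values was not tested. Among 5 mesothelial markers 2 were tested, 0 were higher and 1 was lower, UPK3B at -2.88 ± 0.50. Their sum was 7.66, 14.7 and 3.65 CPM in lambs, against 9.45, 3.97 and 4.18 CPM in fetuses. Most of that sum in lambs was WT1, a factor of mesothelium and visceral stroma, named here after its values were seen. WT1 was at 7.02, 13.6 and 3.30 CPM in lambs, against 4.72, 2.50 and 2.45 CPM in fetuses (edgeR adjusted p = 0.0752). It passed with library totals, the DESeq2 test, the exact test and without lamb library 3. The part of mesothelial cells in the TCF21 values was not tested. Markers of kidney glomerulus and tubule, where TCF21 is also expressed, summed to 3.06 to 6.10 CPM in lambs and 3.16 to 5.74 CPM in fetuses, with 0 of 3 tested past the test and AQP2 at 0 in every library.

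ZNF423 encodes a zinc finger protein that marks and commits preadipocytes in the mouse (ENSOARG00000017044, chromosome 14, 17464625 to 17614285). It was at 34.8, 34.4 and 67.5 CPM in lambs, against 30.2, 31.9 and 36.0 CPM in fetuses. Lamb library 3 alone stood out, and lambs 1 and 2 lay within the fetal range. The log2 difference was 0.48 ± 0.26 (edgeR adjusted p = 0.177), and without lamb library 3 it was 0.08 (adjusted p = 0.622). It passed under scaling by library totals, at 0.94 (adjusted p = 0.0151). ZNF521, which antagonizes ZNF423 and EBF factors in the mouse, was at 9.63 ± 1.59 CPM in lambs and 15.1 ± 1.31 CPM in fetuses (SD, n = 3 each), a log2 difference of -0.65 ± 0.16 (edgeR adjusted p = 0.0149).

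EBF3 encodes an EBF family factor that can stand in for EBF1 in fat cell cultures (ENSOARG00000014932, chromosome 22, 48124079 to 48161106). It was at 10.6, 12.1 and 13.6 CPM in lambs, against 13.2, 13.2 and 16.0 CPM in fetuses. The stages overlapped, the log2 difference was -0.23 ± 0.15 (edgeR adjusted p = 0.262), and under library totals its sign turned, to 0.24. Its relative EBF2, a brown fat cell factor, was at 25.7, 22.6 and 33.3 CPM in lambs, against 200, 224 and 232 CPM in fetuses. EBF2 fell by 3.01 ± 0.18 on the log2 scale (edgeR adjusted p = 4.69e-05). The remaining family genes differed among themselves: EBF4 was lower, at -0.61 ± 0.16, a call lost with library totals or without fetal library 2 or 3, and CEBPZ, a CCAAT-binding protein of another structural class, was higher, at 0.89 ± 0.15. CEBPE, a factor of granulocytes, was too low to be tested.

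GATA2 encodes a zinc finger factor that represses PPARγ in preadipocytes and also serves endothelium and blood precursors (ENSOARG00000004299, chromosome 19, 59143424 to 59147498). It was low, at 3.01, 2.75 and 2.85 CPM in lambs, against 3.65, 2.43 and 1.85 CPM in fetuses. The lambs fell inside the fetal range, and the log2 difference was 0.12 ± 0.30 (edgeR adjusted p = 0.771) with a 95% interval from -0.58 to 0.81. Of 6 tested endothelial markers 1 was higher, TEK at 0.65 ± 0.22, and 2 were lower, led by TIE1 at -1.20 ± 0.19. Their sums were 1481 to 1581 CPM in lambs and 1445 to 1823 CPM in fetuses. TEK overlapped between stages (edgeR adjusted p = 0.0426). It lost its call with upper quartile factors and without lamb library 2 or 3 or any 1 fetal library. Mast cell markers had 0 higher and 2 lower of 5 tested, KIT and the tryptase gene listed as TRYPTASE-1, and summed to 28.8 to 36.8 CPM in lambs and 56.3 to 99.1 CPM in fetuses. GATA2 is also found in urothelium, and all 10 tested urothelial markers were lower in lambs. They summed to 0.741, 0.830 and 0.600 CPM in lambs, against 192, 76.9 and 56.0 CPM in fetuses, with UPK3A at 0 in all 3 lambs. The part of these cells in the GATA2 values was not tested.

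Other genes that steer fat cell formation are listed from lists chosen with earlier results of these data known. For these and the lists below, the background was 22% of all genes tested passing upward and 22.7% downward. Of 17 tested regulators that promote adipogenesis, 8 passed upward, 3 passed downward and 6 did not pass (median log2 difference 0.30). Without fetal library 3 the upward count was 5. KLF4, which activates CEBPB in a mouse preadipocyte line, was at 162 ± 45.2 CPM in lambs and 16.3 ± 2.01 CPM in fetuses (SD, n = 3 each), a log2 difference of 3.31 ± 0.23. KLF15, a factor of later differentiation and of glucocorticoid response, rose by 2.02 ± 0.22. PPARG, the partner of CEBPA in the mature cell and listed as PPARG2, rose by 0.66 ± 0.15. It moved in the direction opposite to CEBPA. SREBF1, a factor of lipid synthesis, fell by 1.99 ± 0.27, and STAT5A, a factor of growth hormone and prolactin signalling, fell by 1.61 ± 0.26.

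Of 19 tested regulators that hold adipogenesis back, 7 passed upward, 2 passed downward and 10 did not pass (median 0.39). FOXO1, an insulin-inhibited factor, rose by 2.15 ± 0.14 and KLF2, which represses PPARG in mouse cells, by 1.64 ± 0.34. The Notch target HES1 fell by 0.72 ± 0.15, and ZNF521 fell by 0.65 ± 0.16. Under library totals the promoting list had 10 higher and 2 lower, and the restraining list had 10 higher and 0 lower. With that scaling 7057 of all 13624 genes tested were called, and 79.3% of those called were higher. Both lists held more rises than falls.

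Among 12 tested fat cell genes that respond to C/EBP factors, 5 passed upward, 2 passed downward and 5 did not pass (median 0.28). The median of this list lay between -0.08 and 0.76 over the alternatives, and the downward count was 5 without lamb library 3 and 1 without lamb library 1 or 2 or fetal library 1 or 3. FABP4, the fat cell fatty acid binding protein, rose by 2.83 ± 0.27 and the insulin receptor substrate gene IRS1 by 2.34 ± 0.19. SLC2A4, the glucose transporter that insulin moves to the surface, fell by 2.02 ± 0.31. AGT, the angiotensinogen gene, fell by 2.04 ± 0.67 (edgeR adjusted p = 0.0388). It was low, at 0.741, 0.415 and 2.10 CPM in lambs, against 7.89, 2.28 and 3.28 CPM in fetuses. ADIPOQ, FABP4, LPL and PLIN1 of this list are also adipocyte markers, and PPARG is also among the promoting regulators, so these lists are not separate observations. The list moved in both directions in tissue where CEBPA fell and CEBPB and CEBPD rose. The part of the C/EBP factors in these changes was not tested.

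**Figure D4:**
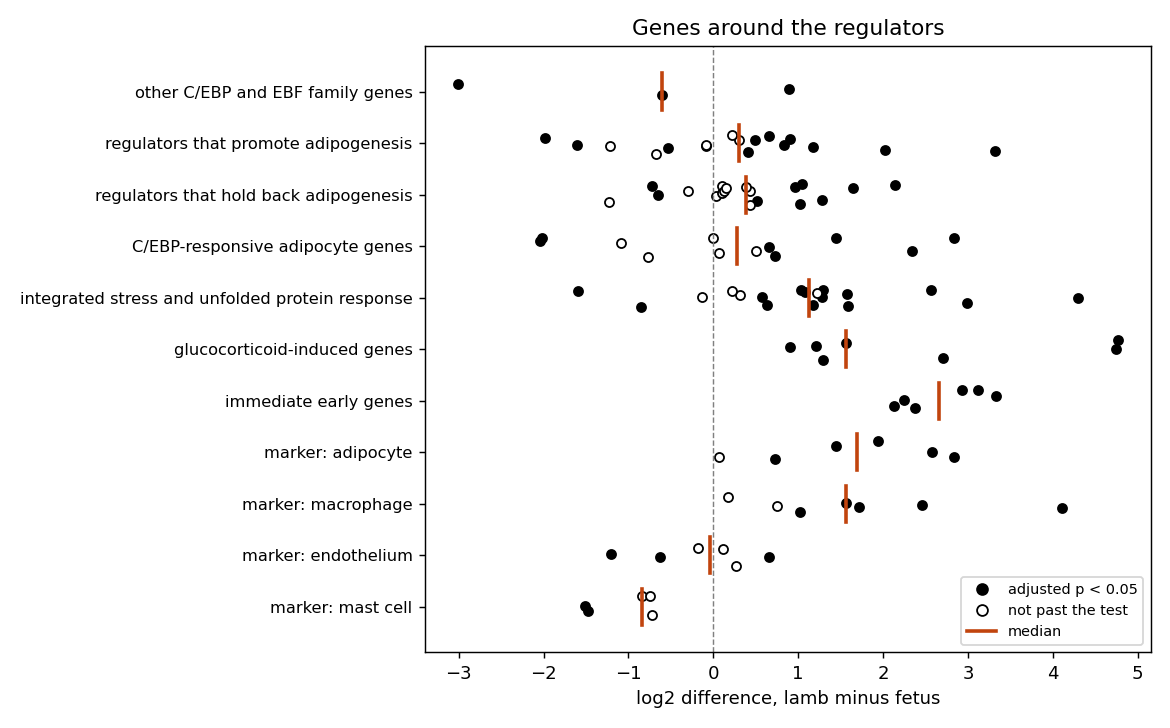
Log2 difference, lamb minus fetus, of each tested gene in the lists set beside the regulators (filled, adjusted p below 0.05; red bar, median; vertical scatter within a row is random). All 6 tested immediate early genes and all 7 tested glucocorticoid-induced genes lay above 0, while the C/EBP-responsive genes lay on both sides.

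Lists of glucocorticoid-induced and immediate early genes were set beside CEBPB and CEBPD. Both lists were chosen with earlier results of these data known, and 22% of all genes tested passed upward. PER1, ZBTB16, JUN and IER2 were not matched by name, and KLF9 also stands among the promoting regulators. All 7 tested glucocorticoid-induced genes passed upward, with a median of 1.56. FKBP5, a chaperone of the glucocorticoid receptor, was at 240 ± 111 CPM in lambs and 8.96 ± 2.32 CPM in fetuses (SD, n = 3 each), a log2 difference of 4.75 ± 0.39. The metallothionein gene listed as MT2 rose by 4.76 ± 0.46. The receptor gene NR3C1, named after its values were seen, was at 192 ± 38.9 CPM in lambs and 204 ± 5.41 CPM in fetuses (SD, n = 3 each; edgeR adjusted p = 0.680). All 6 tested immediate early genes passed upward too, with a median of 2.65, led by FOSB at 3.33 ± 0.47 and FOS, listed as C-FOS, at 3.11 ± 0.41. These genes also move with handling of the animal and tissue before freezing. The part of glucocorticoid or other signals, or of handling, in the CEBPD and CEBPB differences was not tested.

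Stress genes around DDIT3 were mostly higher. Of 18 tested genes of the integrated stress and unfolded protein responses, 12 passed upward, 2 passed downward and 4 did not pass (median 1.13). ATF4, the factor that induces DDIT3, was at 649 ± 69.6 CPM in lambs and 268 ± 7.60 CPM in fetuses (SD, n = 3 each), a log2 difference of 1.28 ± 0.14. ATF3, also an immediate early gene, rose by 4.30 ± 0.23 and DDIT4, a glucocorticoid- and stress-induced inhibitor of mTOR, by 2.99 ± 0.20. TRIB3, which ATF4 and CHOP induce, fell by 0.85 ± 0.24, and the serine synthesis gene PHGDH fell by 1.59 ± 0.52. Under library totals the list had 14 higher and 0 lower, where 79.3% of the 7057 genes called among all tested were higher. The downward count was 0 to 1 on leaving out any 1 library.

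CEBPA, CEBPB and CEBPD are also factors of macrophages. Of 7 tested macrophage markers 5 were higher and 0 lower, led by MRC1 at 4.11 ± 0.25 and CD14 at 2.46 ± 0.19. They summed to 1509, 1395 and 1218 CPM in lambs, against 230, 150 and 323 CPM in fetuses. MRC1 alone made up 1144, 1016 and 819 CPM of the lamb sums and 61.9, 41.9 and 69.1 CPM of the fetal sums. CSF1R and C1QB did not pass the test. CEBPD and CEBPB were higher in the lamb libraries, CEBPA was lower in them, and the part of macrophages in these values was not tested. Red cell markers had 0 higher and 4 lower of 5 tested and summed to 50.1 to 79.3 CPM in lambs and 376 to 1298 CPM in fetuses. B cell markers had 1 higher and 0 lower of 2 tested, with sums of 3.25 to 9.44 CPM in lambs and 3.09 to 3.47 CPM in fetuses. The higher gene, CD79A, overlapped between stages and lost its call with limma-voom and without lamb library 1 or 2 or any 1 fetal library. Pericyte and smooth muscle markers had 1 higher and 1 lower of 6, with sums of 474 to 1154 CPM in lambs and 523 to 752 CPM in fetuses. Adrenal markers had 1 higher and 0 lower of 4, with sums of 38.5 to 48.7 CPM in lambs and 23.9 to 35.5 CPM in fetuses, and DBH was at 0 in every library.

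Ordered by the authors' mean RPKM, the 9 genes stood differently in the stages. In lambs CEBPB, TCF21, CEBPD and CEBPA led, at 105, 102, 99.2 and 79.3 RPKM, where the TCF21 mean rests on libraries 1 and 2. They were followed by CEBPG at 28.4, EBF3 at 22.8, ZNF423 at 14.0, GATA2 at 6.40 and DDIT3 at 5.27 RPKM. In fetuses CEBPA led at 146 RPKM, followed by CEBPB at 52.9. CEBPG, EBF3, TCF21 and CEBPD then lay close together at 21.0, 20.6, 16.3 and 15.1 RPKM, ahead of ZNF423 at 8.20, GATA2 at 3.78 and DDIT3 at 1.63 RPKM. ZNF423, GATA2 and DDIT3 were the last 3 at both stages.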

How the data were processed

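RNA was sequenced in 6 libraries, 3 lamb and 3 fetal, grouped by the sample descriptions. Per the labels' protocols, reads were single-end from TruSeq RNA libraries of perirenal fat. Per the series text the authors mapped them to Ensembl gene models of Oar v3.1 in CLC Genomics Workbench. How reads were filtered, placed at several loci or assigned to strands is not given in those texts. The authors deposited raw counts per gene and library, mean RPKM per stage, and the signed fold score, p-value and FDR-corrected p-value of their edgeR comparison. The 12 per-library RPKM columns were not used, since 1 header repeats the name of fetal sample 3.

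The count model was fitted with edgeR 4.0.16 under R 4.3.3 (filterByExpr, TMM, quasi-likelihood F test, no covariates). The 9 genes had identical counts in both deposited tables. SE is the log2 difference divided by the root of F. Ratios add 0.5 to each count. Alternatives covered scaling, filters, limma-voom (limma 3.58.1), DESeq2 1.42.0, the exact test, the replicate number as a block, and leaving out each library. The regulators and lists were chosen with earlier results of these data known. From each list up to 2 called genes per direction, at 1 CPM or more, were named by size of change. PPARG, ATF4 and EBF2 were named whatever their result, and a few others after their values were seen. Genes listed under older symbols were matched by those. Figures used matplotlib 3.10.9.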

Additional observations from a re-analysis of the deposited data

How the results depend on the processing

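Over 16 alternatives, CEBPA stayed lower and CEBPD higher with their calls. The count of all genes called was 6095 and lay between 4798 and 7057. The count of the 9 regulators called lower was 1 throughout. The count called higher was 3, and was 5 with library totals (DDIT3 and ZNF423 added), where 79.3% of all genes called were higher. It was 2 with upper quartile factors, at least 1 count in any library and at least 5 CPM in 3 libraries (without CEBPB). With limma-voom it was also 2 (without TCF21). It was 1 to 2 on leaving out 1 library, where CEBPB, TCF21 or both dropped out. The sign of CEBPG, near 0, turned with upper quartile factors (-0.0616), without mitochondrial genome genes (-0.00071), with at least 5 CPM in 3 libraries (-0.0402), with limma-voom (-0.0156) and with the replicate block (-0.0048), and it lay between -0.18 and 0.11 on leaving out 1 library. EBF3 turned to 0.24 with library totals, and GATA2 lay between -0.0848 and 0.42 on leaving out 1 library, negative without fetal library 3. At 5 CPM in 3 libraries DDIT3 and GATA2 were not tested. The 4 ratios kept their direction. Over the alternatives the counts of markers called higher moved between 0 and 3 for endothelium and pericytes, 0 and 2 for adrenal and 0 and 1 for B cells and mesothelium. Of the 11 fibroblast and preadipocyte markers, 3 were higher without fetal library 3 and 7 with library totals. Without fetal library 2, 3 of them were lower. The causes were not tested.

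Deviations of same-numbered lambs and fetuses from their stage means had correlations over genes of 0.00327, -0.116 and 0.0460. Those of different number ran from -0.14 to 0.14. No known pairing was at hand as a reference, so whether the numbers pair libraries cannot be told from these values. With the replicate number as a block 5353 genes were called. DDIT3 then passed (1.12, adjusted p = 0.0404), TCF21 did not (1.96, adjusted p = 0.0829), and the smallest exact p of a ratio became 0.25. Counts of 10 to 74 limit what can be said of DDIT3 and of 31 to 61 of GATA2.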

Other observations

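The departure of lamb library 3 in TCF21 was set against all genes tested, a description chosen after the values were seen. In 172 genes at 1 CPM or more in the highest fetus, lamb libraries 1 and 2 both lay more than 4-fold above every fetus. In 2 of these 172 lamb library 3 fell inside the fetal range: TCF21 and the unnamed gene ENSOARG00000009963 (chromosome 21, 25823134 to 25829605 on Oar v3.1). That gene was at 16.0, 16.2 and 2.25 CPM in lambs, against 1.79, 3.02 and 0.418 CPM in fetuses. For the same count with lamb library 1 or lamb library 2 as the one set apart, the totals were 162 and 158 genes, with 0 and 0 inside the fetal range. Lamb library 3 was also the one with the highest ZNF423, at 67.5 CPM.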
